A study of Mus musculus with 2 samples.

Results

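The regions described are stretches of open chromatin in mouse bladder that were tall in both replicates and held no footprint in either. They were chosen by measured values: overlapping peaks of both replicates were merged, merged regions with a peak of each replicate and a tallest peak of at least 0.6 in both were kept, and those that no listed footprint overlapped by 1 bp or more were taken. This gave 229 of 31014 tall shared regions, or 0.738%, out of 53490 shared regions and 156575 merged regions of any height. The data are DNase-seq of the urinary bladder of female B6CASTF1/J mice aged 4 days, which are F1 hybrids of C57BL/6J and CAST/EiJ. There is a single group of 2 biological replicates, from females numbered separately but listed with the same donor identifier, so there is no treated, mutant or control group. The spread between the replicates may therefore be partly technical. The tissue is a mixture of cell types, and no value here tells openness in few cells from weak openness in many.

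DNase I cuts DNA where nucleosomes are absent, and sequencing the released ends shows where chromatin is open. Within an open stretch, a protein bound to the DNA shields the bases it covers from the enzyme, and the short dip in cuts that results is called a footprint. Promoters and enhancers are the main classes of open chromatin. Many mammalian promoters lie in CpG islands, stretches rich in G, C and the dinucleotide CG, where the open stretch around the transcription start site (TSS) is broad.

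The height of a peak is the signal that the authors deposited, on a scale not stated in the labels or file descriptions. Heights came in whole steps of 0.00466 in replicate 1 and 0.00417 in replicate 2, within 0.02 steps for 100% of the peaks. The median member stood 200 steps high in replicate 1 and 169 steps high in replicate 2. If 1 step is 1 counted event, the exact 95% Poisson intervals are 173 to 230 and 144 to 196 steps, which cover counting error only. The limit of 0.6 equals 129 steps in replicate 1 and 144 steps in replicate 2. Throughout, members were set beside the 30785 tall shared regions that held a footprint, weighted so that their heights fell into bins of 0.25 on the log2 scale in the same proportions as the members; these are called footprinted regions of matched height. All 229 members had footprinted regions in their bin. Regions of 1 tissue are not replicates of a condition, so the differences are given as sizes, without a p-value.

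Sequences are shown for the tallest members, chosen by rank of height. Their base composition varies: the whole regions at Prpsap1 and Ruvbl2, at 52.3% and 57.1% GC, lie below the members' lower quartile of 61.3%. They are read 5′ to 3′ on the plus strand of the RefSeq reference genome GRCm38.p6, the mm10 build of the deposited files, and capitals mark CG dinucleotides. The window at Tubb4b, a beta-tubulin gene, is chr2:25224216-25224415 and holds 21 CG dinucleotides at a GC content of 71.5%. The window at Prpsap1, whose product binds phosphoribosyl pyrophosphate synthetase, is chr11:116490556-116490755, with 10 CG dinucleotides at 52.0% GC. The window at Mapk6, which encodes the atypical MAP kinase ERK3, is chr9:75409360-75409510, shortened to the part outside annotated UTRs, with 12 CG dinucleotides at 72.2% GC. The window at Ruvbl2, the second tallest, is mostly annotated UTR and is not shown.
Tubb4b member: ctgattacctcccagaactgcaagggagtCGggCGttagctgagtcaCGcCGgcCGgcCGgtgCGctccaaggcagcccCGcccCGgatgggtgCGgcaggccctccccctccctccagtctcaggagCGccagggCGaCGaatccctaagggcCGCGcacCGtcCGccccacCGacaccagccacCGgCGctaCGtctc
Prpsap1 member: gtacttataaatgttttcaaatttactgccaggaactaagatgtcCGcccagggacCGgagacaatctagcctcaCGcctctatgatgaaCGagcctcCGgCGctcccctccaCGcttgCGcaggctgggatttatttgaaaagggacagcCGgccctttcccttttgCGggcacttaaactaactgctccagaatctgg
Mapk6 member: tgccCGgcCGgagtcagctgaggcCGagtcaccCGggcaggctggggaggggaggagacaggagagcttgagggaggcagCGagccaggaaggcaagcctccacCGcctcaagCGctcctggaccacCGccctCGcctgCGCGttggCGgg

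For contrast, a footprinted region of nearly the same height as the Tubb4b member and the taller region beside that member are shown next, and here capitals mark the bases that a footprint of either replicate covered. The first, chr17:47974066-47974265, lies 49521 bp from the nearest TSS, that of Foxp4, and 66 of its 200 bases were in footprints. It is the centre of a region with heights of 1.53 in replicate 1 and 1.38 in replicate 2 that held 4 and 3 footprints. The second, chr2:25224751-25224950, is the centre of the taller region at the Tubb4b promoter, and 78 of its 200 bases were in footprints. It was added after the values were seen.
Foxp4 footprinted region: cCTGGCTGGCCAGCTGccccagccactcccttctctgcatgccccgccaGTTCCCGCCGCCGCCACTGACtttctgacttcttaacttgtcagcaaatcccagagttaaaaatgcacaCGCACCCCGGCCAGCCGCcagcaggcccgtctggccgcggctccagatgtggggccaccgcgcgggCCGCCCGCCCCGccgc
Tubb4b taller region: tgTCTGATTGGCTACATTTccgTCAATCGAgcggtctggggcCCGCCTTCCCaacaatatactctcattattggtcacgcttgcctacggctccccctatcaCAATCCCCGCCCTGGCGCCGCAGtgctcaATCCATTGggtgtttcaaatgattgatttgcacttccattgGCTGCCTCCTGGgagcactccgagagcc

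The Tubb4b windows differ in their letters as well as in their footprints. The member had no match to CCAAT, the box bound by NF-Y, against 4 in the taller region 140 bp away. TGANTCA, the AP-1 site, occurred at 1 place in the member and was not found in the taller region. GGGCGG, the core of sites for SP and KLF factors, occurred at 2 places in the member and at 1 in the taller region. The footprinted region near Foxp4 held 1 match each to GGGCGG, to the E-box CAGCTG and to the CTCF consensus. A further match to GGGCGG overlaps the first and is not in this count. A match is a description of the letters and shows no binding.

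The 10 tallest members all lay within 1000 bp of the TSS of a protein-coding gene and all had a taller footprinted region close by. Where more than 1 region within 1000 bp was taller, the tallest is described. Members are ranked by the geometric mean of their heights. The tallest spanned chr2:25224181-25224460, centred 338 bp downstream of the TSS of Tubb4b. Its height was 1.54 in replicate 1 and 1.37 in replicate 2, a mean of 1.45 ± 0.123 (SD, n = 2). The region beside it, at the promoter, was 2.71-fold taller and held 15 footprints over both replicates.

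The second tallest by that measure spanned chr7:45434201-45434540, 129 bp upstream of the TSS of Ruvbl2, a subunit of chromatin remodelling complexes. It was 1.34 high in replicate 1 and 1.46 high in replicate 2, the only one of the 10 that was taller in replicate 2. Its nearest footprints were only 25 bp away in replicate 1 and 51 bp away in replicate 2, and the region 100 bp from it was 5.18-fold taller.

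The member near Prpsap1, 308 bp upstream of the TSS, was 1.74 high in replicate 1 and 1.06 high in replicate 2. Its taller neighbour lay 20 bp away and was only 1.63-fold taller. The member at Mapk6 was 1.62 and 1.04 high in replicates 1 and 2, and lay 360 bp from a region 3.70-fold taller with 14 footprints. Both were over 1.5-fold taller in replicate 1. So was the member at Pnpla8, which encodes a calcium-independent phospholipase, at 1.56 in replicate 1 and 1.03 in replicate 2. Its GC content was 73.6%.

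Polr2a, the largest subunit of RNA polymerase II, had a member 494 bp upstream of its TSS at heights of 1.40 and 1.13 in replicates 1 and 2. Zfyve21, a FYVE zinc finger gene, had one 220 bp downstream at 1.45 and 1.04. Ska2, a part of the kinetochore, had one 240 bp downstream at 1.42 and 1.00. Members 474 bp downstream of the TSS of Ddx17, an RNA helicase, at 1.28 and 1.10, and 335 bp downstream of that of Slc35f5, a solute carrier family member, at 1.39 and 1.02, completed the 10. Over the 10, neighbours were 1.63-fold to 5.49-fold taller, and held 5 to 16 footprints.

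The share of regions without a footprint was lower at greater heights. Of tall shared regions, 2.46% had none between heights of 0.595 and 0.707 (geometric mean of both replicates), then 2.10%, 1.54%, 0.612%, 0.260% and 0.0384% in the next bins of 0.25 on the log2 scale, and no region above 1.68 was without one. Of the 229 members, 199 had a mean height under 1. The members had median heights of 0.931 in replicate 1 and 0.705 in replicate 2, with ranges of 0.601 to 1.74 and 0.6004 to 1.46. Of the tall shared regions, 630 had no footprint in replicate 1 and 991 had none in replicate 2, so the members were 36.3% of the first set and 23.1% of the second. A footprint in replicate 1 alone was listed for 762 regions and in replicate 2 alone for 401.

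**Figure D1:**
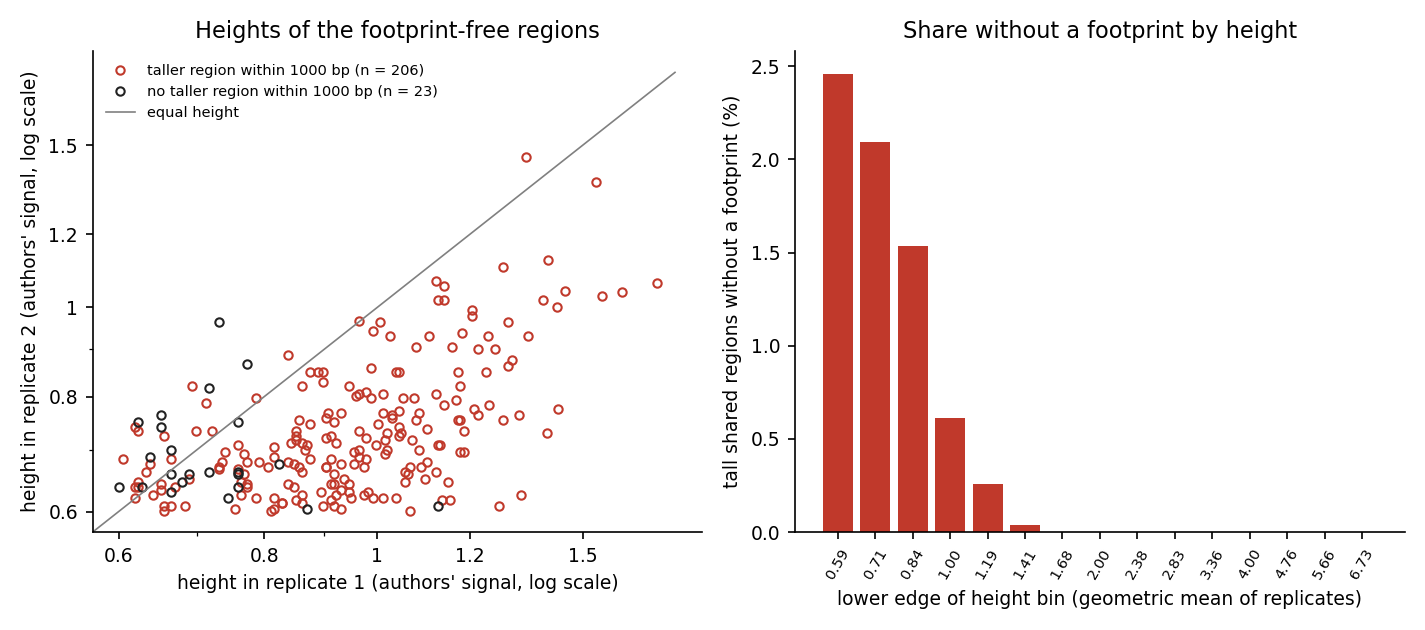
Left, height of each of the 229 members in replicate 2 against replicate 1, in the authors' signal units on log axes, with the 206 members that had a taller region within 1000 bp in red and the 23 others in black, and a line of equal height. Right, percent of tall shared regions without a footprint in each bin of height (bars; bins of 0.25 on the log2 scale, up to 8). The share falls from 2.46% in the lowest bin to 0 from a height of 1.68 upward, and most red points lie below the line.

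The members just inside the limit were 3 regions of height 0.6004 in replicate 2, at Ttc41, Tuba1c and Slain2. In replicate 1 they were 1.07, 0.810 and 0.657 high. Just outside it, footprint-free regions at Hps6, Grk5 and Tubgcp4 were 0.596 high in replicate 2, 1 step lower, and 0.754, 0.768 and 0.745 high in replicate 1. On both sides of the limit it was the height in replicate 2 that decided.

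Most members were lower in replicate 2, as were most tall shared regions. The log2 ratio of heights, replicate 2 over replicate 1, had a median of -0.35 in members (quartiles -0.53 and -0.14), against -0.24 in footprinted regions of matched height and -0.37 in all footprinted regions. Among members with a taller region within 1000 bp, 19 of 206 were higher in replicate 2, and among the others 10 of 23. For footprinted regions, not matched in height, these counts were 439 of 4625 and 2992 of 26160. At matched height, the footprinted regions without a taller region had an upper quartile of the log2 ratio of 0.05. By more than 1.5-fold, 42 members (18.3%) were lower in replicate 2, against 12.1% at matched height and 20.5% of all tall shared regions. None was higher in replicate 2 by more than 1.5-fold, against 0.595% at matched height and 0.477% of all tall shared regions. Both heights were part of the rule, so these ratios are a description.

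Members were broad, rich in GC and rich in CG dinucleotides. Their median width was 340 bp (quartiles 280 and 460), against 213 bp (180 and 301) in footprinted regions of matched height. Their median GC content was 67.4% (61.3 to 71.1), against 56.6% (51.9 to 62.7). The ratio of observed to expected CG dinucleotides had a median of 0.795 in members and 0.372 in footprinted regions of matched height. With at least 50% GC and a ratio of at least 0.6, 184 members (80.3%) were CpG-rich, against 26.0% at matched height. Footprinted regions matched in height and also in quartile of width reached 48.5%, and those matched in height and quartile of GC content 60.7%, so the members' share was higher on each scale.

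**Figure D2:**
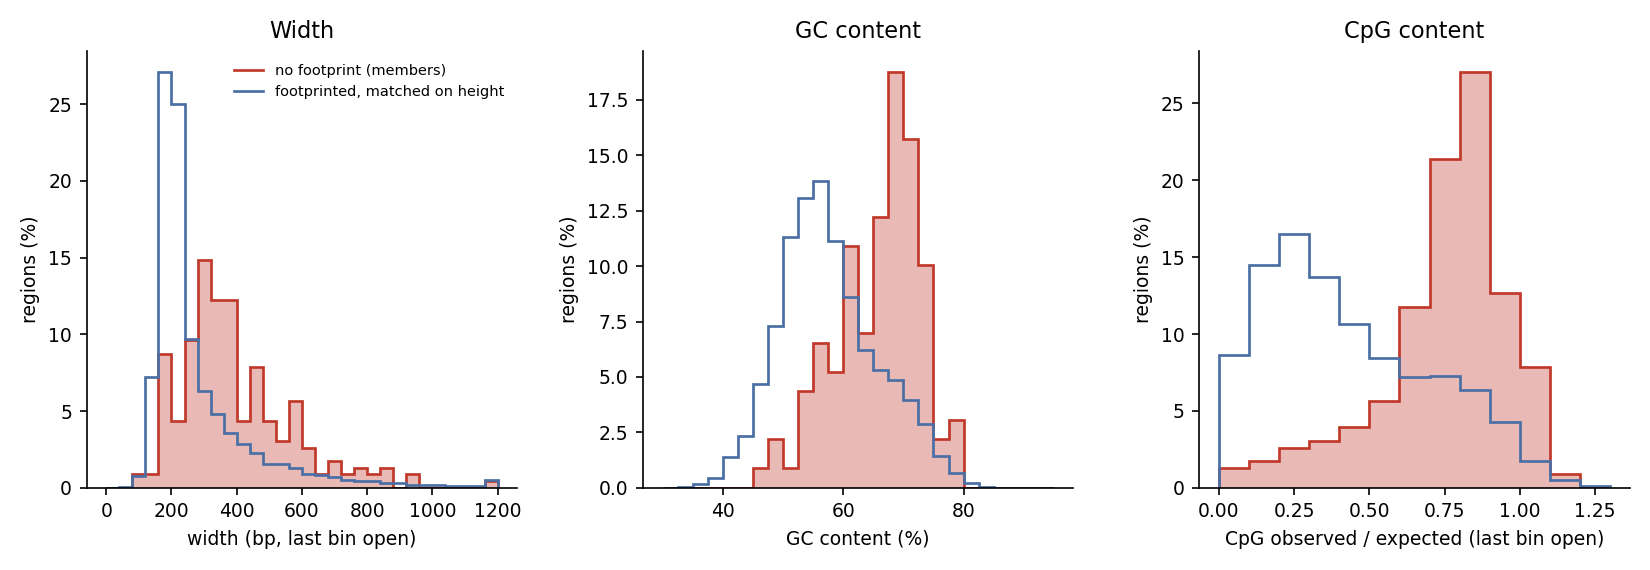
Percent of regions by width in bp, by GC content in percent and by observed over expected CG dinucleotides, for the 229 members (red, filled) and footprinted regions of matched height (blue line). The members' distributions lie to the right in all 3 panels, with medians of 340 bp, 67.4% and 0.795, against 213 bp, 56.6% and 0.372.

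The widest members were also CpG-rich and next to genes. Wee1, the kinase that holds back entry into mitosis, had a member of 1160 bp centred 930 bp downstream of its TSS. It was 0.792 high in replicate 1 and 0.680 high in replicate 2. Tle1, a Groucho corepressor, had one of 958 bp, and Acap2, a GTPase-activating protein for ARF proteins, one of 920 bp. Their neighbours were 8.24-fold, 7.58-fold and 5.08-fold taller.

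Repeats took up little of either class. The median share of repeat-masked bases was 1.47% in members and 3.47% at matched height, and 119 members (52.0%) held any such base, against 53.8%. Masked bases made up at least 50% of 2 members, near Spin2g on the X chromosome with 85.5% and near Arl3 with 54.5%; both are named because there were only 2. Per chromosome, members made up 0.304% of tall shared regions on X to 1.38% on chromosome 19, among chromosomes that held any.

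Most members lay beside gene starts, but off the start itself. Within 1000 bp of the TSS of a protein-coding gene lay 197 members (86.0%), against 33.1% of footprinted regions of matched height. The share was 55.7% among those matched in height and width and 63.1% among those matched in height and GC content. Of the other members, 14 were intronic, 14 intergenic and 4 in other exons, against 27.5%, 35.3% and 4.11% of footprinted regions of matched height. Annotated UTR bases overlapped 86 members (37.6%), against 22.5% at matched height, 39.9% at matched height and width, 45.5% at matched height and GC content and 40.2% of all footprinted regions, so the direction turned with the comparison.

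Among regions near a TSS, the members sat downstream. Their centres had a median position 319 bp into the gene (quartiles 38 and 479), against 8 bp (-82 and 268) in footprinted regions of matched height. Of the 197 members, 155 (78.7%) were centred downstream of the TSS, against 53.0%. Between 100 and 500 bp downstream lay 97 members (49.2%), against 21.6%. Within 100 bp of the TSS on either side lay only 31 (15.7%), against 42.3%. Near a TSS the gap in composition was smaller, with 68.4% GC in members and 64.7% in footprinted regions, and widths of 360 and 320 bp at the median.

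**Figure D3:**
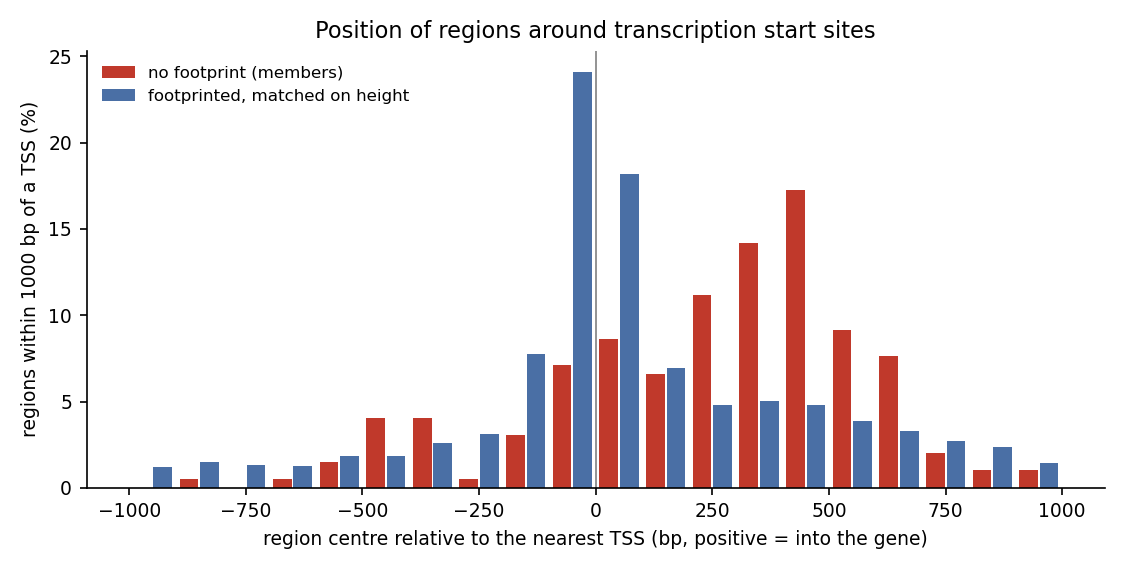
Percent of the regions near a TSS by position of their centre relative to the nearest protein-coding TSS, in bins of 100 bp, with positive values inside the gene, for 197 members (red) and footprinted regions of matched height (blue). Members are most frequent 200 to 600 bp downstream and footprinted regions within 100 bp of the TSS, where 15.7% of members and 42.3% of footprinted regions lay.

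Most members had a taller region nearby, a comparison added after the data were seen. Within 1000 bp, 206 members (90.0%) had a taller shared region, against 20.6% of footprinted regions of matched height. The share was 33.3% at matched height and width, and 33.5% at matched height and GC content. The trait was also frequent in regions with a footprint in a single replicate, weighted to the same heights: 77.3% of those with one in replicate 2 alone and 51.6% of those with one in replicate 1 alone had a taller region, against 17.1% of those with one in both. Their shares near a TSS were 70.3%, 54.97% and 30.6%. Near a TSS the shares with a taller region were 98.5% (194 of 197 members) and 41.8%. Where more than 1 region was taller, the tallest was taken, so a nearer taller region may be passed over. All 206 of the taller regions taken held footprints, 11 at the median over both replicates. So did 30785 of the 31014 tall shared regions, and every one above a height of 1.68, so this is no trait of the members' neighbours. The median heights of the taller regions were 4.47 in replicate 1 and 3.45 in replicate 2. They were 4.52-fold the height of the member (quartiles 3.47 and 5.73), at a gap of 220 bp (120 and 360).

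The taller regions were mostly centred upstream of the gene start. For the 194 members near a TSS with such a neighbour, the neighbour's centre was at -156.5 bp from the same TSS at the median (quartiles -359 and -73). Of the 155 members downstream of the TSS, 145 had it on the upstream side. Of the 39 members upstream of the TSS, 23 had it on the downstream side. The neighbour was nearer the TSS than the member in 125 of the 194 cases, and farther from it or as far in the others. The stretch between a member and its taller region was itself listed by the authors as having a false discovery rate of at most 0.05 at every base in both replicates for 186 of 206 members (90.3%), against 20.9% of the footprinted regions of matched height that had a taller region. The length of that stretch was not matched, and a shorter one is more easily listed throughout. A taller region lay within 500 bp of 86.0% of members and 15.3% of footprinted regions of matched height, and within 1000 bp of 90.0% and 20.6%. Only 9 members (3.93%) directly abutted another merged region, against 1.81%.

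Seen from all tall shared regions, those with a taller region within 1000 bp lacked footprints in 4.26% of 4831 cases, and those without in 0.0878% of 26183. With a mean height under 1 these shares were 7.63% and 0.288%. The share was 6.44% of the 2702 that were also CpG-rich and near a TSS, or 13.2% of the 1132 among them with a mean height under 1. It was 1.503% of the 2129 that had a taller region but were not both CpG-rich and near a TSS, or 2.30% under a height of 1. Of the 9819 regions that were CpG-rich and near a TSS with no taller region, 1 was a member, at Kcnn2, a potassium channel gene.

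**Figure D4:**
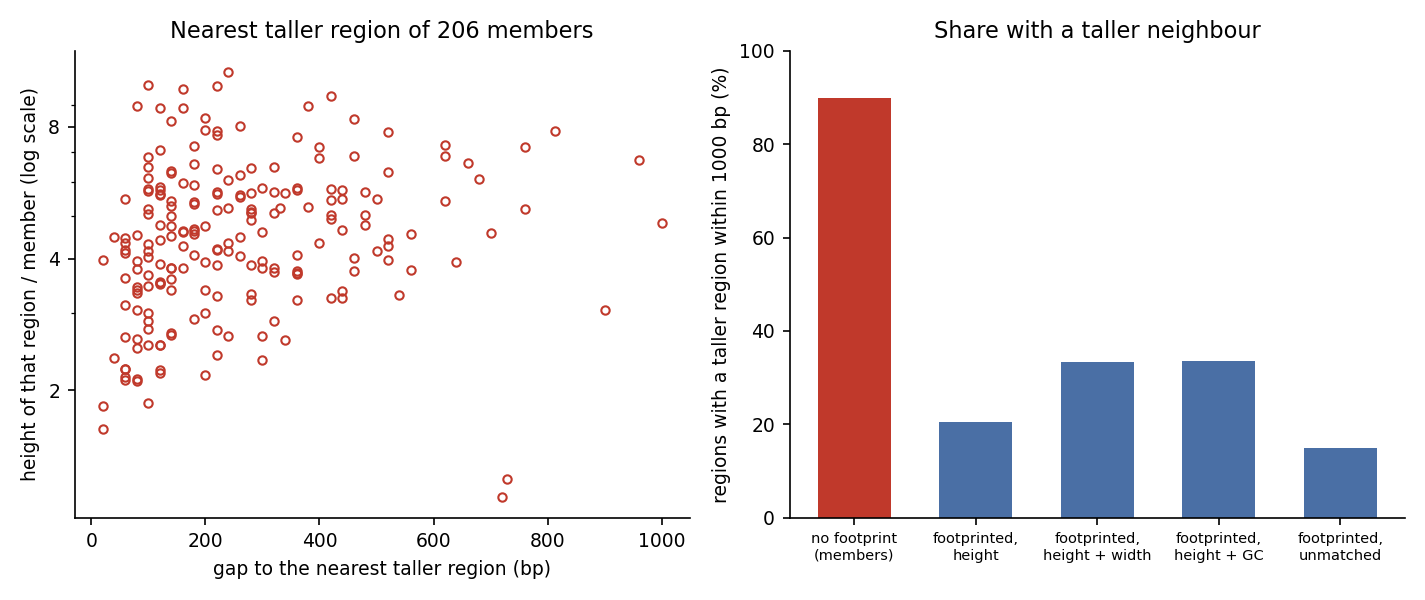
Left, height of the taller region over that of the member (log axis) against the gap between them in bp, 1 point for each of 206 members. The region is the tallest within 1000 bp, although the panel labels it as the nearest. Right, percent of regions with a taller shared region within 1000 bp, for members (red bar) and for footprinted regions matched as named and unmatched (blue bars). The medians on the left are 4.52-fold and 220 bp, and the bars are 90.0%, 20.6%, 33.3%, 33.5% and 15.0%.

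By the rule no footprint overlapped a member, and the gaps to the nearest ones are a description. They have no comparison here, because footprinted regions overlap a footprint by definition. For 206 members a taller region with footprints lay at a median gap of 220 bp. The nearest footprint was 158 bp away at the median in replicate 1 (quartiles 100 and 254) and 201 bp in replicate 2 (128 and 333). In either replicate, a footprint lay at a gap of at most 200 bp from 151 members and at most 50 bp from 22, whereas 19 members had none within 1000 bp. The footprint lists held 217816 footprints in replicate 1 and 189794 in replicate 2, and footprinted regions of matched height carried 10.6 and 8.23 per kb in replicates 1 and 2.

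The members' own listed rates were at least as strong as those of footprinted regions of matched height. Of the 229, 183 (79.9%) held a peak of the stricter list in both replicates, against 55.4% at matched height. That difference of 24.6 percentage points was 14.4 at matched height and width, 2.89 with a height limit of 1, and 4.51 to 8.05 in 1 replicate alone. At the centre of the region, the median -log10 of the listed false discovery rate was 5.57 in members and 4.34 in footprinted regions of matched height in replicate 1, and 3.95 and 3.34 in replicate 2. The shape around the centre differed more than the centre. At 240 bp upstream of it in genome coordinates, 69.0% of members still had a listed rate in replicate 1 and 55.5% in replicate 2, against 22.9% and 13.9% of footprinted regions. At 240 bp on the other side it was 71.2% and 58.1% of members, against 22.9% and 13.7%. Both points lie outside a region of median width, 340 bp in members and 213 bp at matched height. A taller region lay within 1000 bp of 90.0% and 20.6%, and how far width or such a neighbour shapes this profile was not tested.

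**Figure D5:**
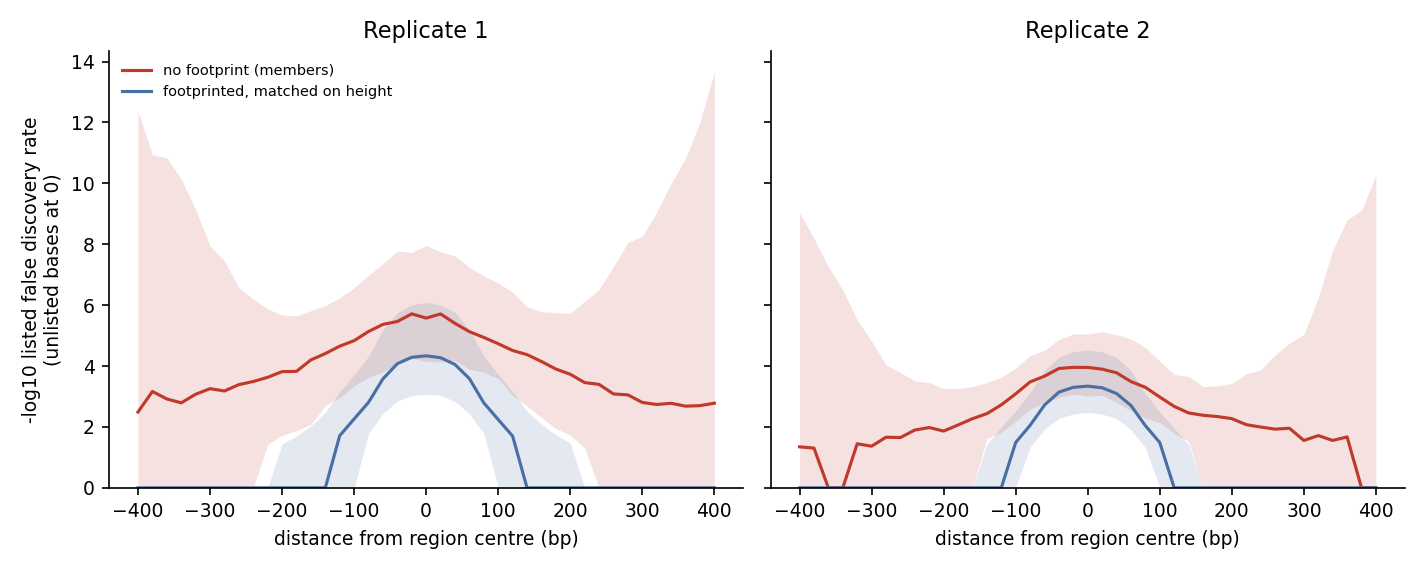
Median -log10 false discovery rate (line) and its quartiles (band) against distance from the region's centre in bp, with unlisted bases at 0, for members (red) and footprinted regions of matched height (blue) in each replicate. Width was not matched, and the outer part of the span lies beyond the edges of most regions. Footprinted regions form a narrow hump that reaches 0 at the median by 140 bp, whereas the members' line stays at 2.49 or more out to 400 bp in replicate 1; in replicate 2 it is 2.27 or lower from 200 bp outward and at 0 at some points beyond 320 bp.

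A smaller set of 23 members had no taller region within 1000 bp and differed from the others in width, base composition and position. Their median width was 179 bp, against 360 bp in the 206 others, and their median GC content was 55.9%, against 68.0%. The ratio of observed to expected CG dinucleotides was 0.329 and 0.809. Footprinted regions of matched height without a taller region were similar, with 198 bp, 55.2% and 0.309. Of the 23, 12 were intronic, 6 intergenic, 2 in other exons and 3 near a TSS, and only 4 were in both stricter lists, or 17.4%, against 33.3% of those footprinted regions. The log2 ratio of heights, replicate 2 over replicate 1, had a median of -0.02 (quartiles -0.20 and 0.14). In those footprinted regions the median was -0.10 (quartiles -0.27 and 0.05).

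The tallest of these 23 was in an intron with the nearest TSS 36233 bp away, that of Sh3pxd2b, an adaptor protein of invadopodia. It spanned chr11:32383985-32384160 and was 0.731 high in replicate 1 and 0.963 high in replicate 2, and its nearest footprint was 8731 bp away. The 3 near a TSS were at Clcn3, a chloride and proton exchanger, at Traf1, an adaptor of TNF receptor signalling, and at Kcnn2. They were 0.759, 0.680 and 0.717 high in replicate 1, and 0.659, 0.646 and 0.663 high in replicate 2; they are named because there were only 3.

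Over 1000 bp from any protein-coding TSS lay 32 members in all, of which 12 had a taller region nearby and 9 were CpG-rich. The tallest lay 1026 bp upstream of the TSS of Lrp1, an endocytic receptor, at heights of 1.21 in replicate 1 and 0.980 in replicate 2. One 26383 bp from the TSS of Pisd, the mitochondrial phosphatidylserine decarboxylase, was 0.964 and 0.967 high in replicates 1 and 2. One 1178 bp upstream of the TSS of Spred1, an inhibitor of RAS signalling, was 1.15 high in replicate 1 but only 0.617 high in replicate 2. Another, at 153160 bp from the TSS of Smim15, was 1.18 and 0.755 high in replicates 1 and 2; among all annotated transcripts the nearest start was one of Zswim6. Distances are to protein-coding TSSs, and 2 of the 32 lay within 1000 bp of another annotated TSS.

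Genes on lists of cell type markers were looked up beside all protein-coding genes. Tall shared regions stood at the TSSs of 9 of 18 urothelial genes, Upk1a, Upk2, Krt7 and Klf5 among them but not Upk1b, Upk3a or Krt5. They stood at 9 of 14 smooth muscle genes, Acta2, Myh11 and Des among them but not Actg2, Cnn1 or Myocd. The counts were 10 of 12 fibroblast genes, 3 of 9 endothelial genes, 1 of 6 immune genes, 3 of 8 glial and neuronal genes and 2 of 4 mesothelial genes. Of the 21924 protein-coding genes counted, 12491 had a tall shared region, so the marker counts do not identify the tissue. None of the marker genes on these lists had a member at its TSS. Of 12 housekeeping genes, all with a tall region, 1 had a member, namely Polr2a. Over all protein-coding genes it was 221 of 12491, or 1.77%, so that with 1 to 10 genes a list a count of 0 does not stand apart from that share.

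The nearest TSSs of the 197 members belonged to 193 genes. Bambi, a pseudoreceptor that blunts TGF-beta signalling, Hnrnpm and Pcbp1, both RNA-binding proteins, and Ubn2, a histone chaperone subunit, had 2 members each; they are named because there were only 4. At Bambi and Ubn2 the members lay on either side of the start, 612 bp and 544 bp upstream and 408 bp and 223 bp downstream. At Hnrnpm both were downstream, at 285 bp and 580 bp, and at Pcbp1 too, at 410 bp and 950 bp. At both genes the 2 members abut each other.

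Consensus letters for 16 factors were searched on both strands of the central 200 bp of each region, by exact match. GGGCGG occurred in 51.1% of members, against 26.7% of footprinted regions of matched height, 50.7% of those matched in height and GC content and 40.7% of all tall shared regions. With GC content matched, the shares differed by 0.406 percentage points. CCAAT occurred in 10.04% of members, against 19.5%, 13.7% and 24.8%. In the central 100 bp at matched height and GC content the direction turned for both, with CCAAT in 7.86% of members against 7.40% and GGGCGG in 30.6% against 33.6%. The E-box CAGCTG occurred in 9.61%, against 18.7%, 16.4% and 15.2%.

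The consensus of CTCF, the insulator protein whose footprint is among the most regular, matched in 25 members (10.9%), against 25.8% at matched height, 17.0% at matched height and GC content, 14.4% at matched height and width, and 25.9% of all tall shared regions. In the central 100 bp it matched in 4.80% of members. Comparison shares were 22.2% at matched height, 11.8% with GC content matched too, 9.62% with width matched instead and 21.9% of all tall shared regions. In the same order, for the central 200 bp, the NFI consensus matched in 0.437% of members, against 4.40%, 2.80%, 2.89% and 2.73%. CCGGAA, the core of ETS sites, occurred in 11.8%, against 7.19%, 9.64%, 9.94% and 13.9%. TGANTCA, the AP-1 site, occurred in 5.68%, against 7.24%, 4.92%, 5.96% and 5.15%. The motifs may overlap one another, and no match in a window says only that these letters were not found there.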

How the data were processed

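DNase-seq was measured in the bladder of 2 biological replicates. Per the file descriptions, the authors derived each replicate's peaks, footprints and rates from its own filtered alignments on mm10; no aligner, caller, version or read depth is named in the sources used here. The deposited peak heights are a signal of unstated scale. In the deposited rate lists the p-value is a q-value, a false discovery rate for each run of bases, reaching at most 0.05, and that of the footprint lists is 0.01 throughout, so footprints could not be ranked. Reads came from a hybrid of 2 strains, and how its alleles were aligned is not given.

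The longer peak list of each replicate was used. Genes were 21951 protein-coding genes of GENCODE M21, and masking was the lower case of the reference sequence. Named regions were the 10 tallest members, the 5 tallest near and the 5 tallest over 1000 bp from a TSS, the 3 nearest the limit on either side, the 3 widest and those at listed genes; any other named region was chosen after its values were seen. Members and lists were chosen with earlier results of these data known. Alternatives were the stricter peak lists, height limits of 0.5 and 1, no footprint within 50 or 200 bp, the tallest peak of each replicate only, other matchings, windows and TSS distances, and either replicate alone. Python 3.11.15, numpy 2.4.6, pandas 2.3.3, scipy 1.17.1 and matplotlib 3.10.9 were used, and overlap, merging and weighting were tested on simulated data.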

Additional observations from a re-analysis of the deposited data

How the results depend on the processing

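The number of members was 425 with a height limit of 0.5, 14 with a limit of 1, and 79 with no footprint nearer than 200 bp (a gap of exactly 200 bp is allowed), which were 1.17%, 0.0779% and 0.255% of tall regions. Using 1 replicate alone gave 1745 to 2162 members, or 5.01% to 5.33% of tall regions. The share near a TSS was 94.3% with the stricter peak lists, 100% with a limit of 1, 74.7% with no footprint within 200 bp, 65.9% when near meant 500 bp, and 70.8% to 72.7% in 1 replicate alone. Median GC content was 65.7% with a limit of 0.5 and 63.1% to 65.2% in 1 replicate alone. Median width was 300 bp with the stricter lists, 300 bp with a limit of 1, 280 bp with no footprint within 200 bp, and 220 to 240 bp in 1 replicate alone. The median log2 ratio of heights was -0.26 with a limit of 1 and with no footprint within 200 bp. The share in both stricter lists was 59.8% with a limit of 0.5, 100% with a limit of 1, 67.1% with no footprint within 200 bp, and 64.0% to 68.9% in 1 replicate alone. The share with a taller neighbour was 96.7% with the stricter lists, 85.2% with a limit of 0.5, 100% with a limit of 1, 70.9% with no footprint within 200 bp, and 69.5% to 80.7% in 1 replicate alone.

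Differences from matched footprinted regions turned their sign in 1 of 79 recomputations outside the motifs: masked bases, 1.62 percentage points higher in members with a limit of 1. Another 35 of the 79 moved in size, meaning that they fell outside a 95% interval for the members' value, shifted to the main difference. That interval treats regions as independent, which they are not, so it is a yardstick only. The 79 include width at matched width and GC content at matched GC content, where the matching itself removes the difference. The width difference of 127 bp was 40 to 42 bp in 1 replicate alone and 40 bp at matched height and GC content, and the GC difference of 10.8 points was 5.58 at matched height and width. UTR overlap was not among the 79. Motif differences turned in 7 of 32. Matched on height and GC content, members were higher by 0.755 points for AP-1, 0.916 for TEAD, 1.81 for RUNX, 0.916 for YY1 and 0.336 for TATA, and differed by -0.990 for NRF1; in the central 100 bp YY1 was higher by 0.855. The cause of these shifts was not tested. No paired analysis was possible because there is 1 group. Read totals are unknown, so how far depth sets which regions hold a footprint was not tested.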
